A study of Mus musculus with 12 samples.

Results

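Sphere cells at passage 5 were compared with J11 mouse embryonic stem cells (MES) over all measured genes, using 3 arrays of each group out of the 12 arrays of the study. The study set fibroblasts and 2 passages of sphere cells against MES as its reference population, and measured total RNA on Illumina bead arrays. The spheres came from primary embryonic fibroblasts of strain FVB/N that carried neomycin resistance (PMEF_NL), and the labels name them as converted sphere cells. The MES line came from strain 129/Sv, so every difference below is also a difference between mouse strains and between a converted culture and 1 line. The other 6 arrays were the arrays labelled MEF, from the FVB/N fibroblasts, and spheres at passage 15. They give levels beside the main comparison and enter the comparison by chip. They also share in the normalization, the detection filter and the fit, so they bear on every SE and p-value. The labels do not say that replicates came from separate cultures, so the p-values measure only the spread between these arrays.

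Mouse embryonic stem cells keep a network of pluripotency transcription factors running, and can leave it for primitive endoderm when the GATA factors Gata4 and Gata6 take over. Primitive endoderm cells deposit a basement membrane of laminin and type IV collagen, and carry Sox17, Sox7, Pdgfra and Dab2. Its visceral branch secretes transport proteins, and its parietal branch thickens the membrane.

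Values are log2 intensities after background correction and normalization, and differences are passage 5 minus MES on the log2 scale, with a standard error (SE) from the limma fit over 12 arrays. A gene was called at a limma adjusted p under 0.05 (Benjamini-Hochberg) together with a difference of at least 2-fold. A gene whose probe was below background on all 3 MES arrays has only a bound there, so its fold is written as a minimum. The arrays of passage 5 detected 18190 to 19060 probes and those of MES 16728 to 17115. Passage 5 arrays 1 and 2 were on chip 2, array 3 on chip 3, and all MES arrays on chip 1, so chip and group cannot be told apart. Array 3 of passage 5 also stood apart from arrays 1 and 2 in fibroblast genes, and calls that rest on this are given with array 3 alone as the passage 5 group. In that setting the passage 5 group is 1 array, assumed to vary like the arrays of the other groups, so its counts do not test the spread at passage 5. Embryonic stem cell markers were present in both groups and also on the arrays labelled MEF, where 5 of the 6 on the array were detected on all 3 arrays, so those arrays are no pure fibroblast reference. The summed intensity of these 6 markers was 16440 to 18580 at passage 5, 22640 to 24190 in MES and 10270 to 17650 in the arrays labelled MEF. The brightest members weigh most in this linear sum. They were Esrrb (mean log2 13.41 at passage 5, 13.58 in MES) and Pou5f1 (11.41 and 12.69). Utf1 also had a lower mean at passage 5, while Sox2 and Zfp42 had higher means there.

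Of 9343 genes, 1369 (14.7%) were called, 931 of them higher at passage 5 (9.96% of all genes) and 438 lower (4.69%). Each gene was read from its brightest probe that passed the detection filter, and 356 called genes had more than 1 such probe. In 113 of these some probe had the opposite sign, of any size, and in 89 all probes were at least 2-fold the same way. With no fold threshold 25.2% of genes passed the test as higher and 28.2% as lower. The arrays of the 2 groups did not overlap for 5996 genes (64.2%), with passage 5 above in 30.2% and below in 34%, and for 1347 of the called genes (14.4% of all genes). The median difference over all genes was −0.05. With median scaling in place of quantile normalization that median moved to 0.61, with 2753 genes called higher and 45 lower. The split between higher and lower calls therefore depended on the scaling. All gene lists below were chosen with earlier results of these data known, so their counts are descriptions. They stand beside 9.96% of all genes called higher and 4.69% called lower.

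**Figure D1:**
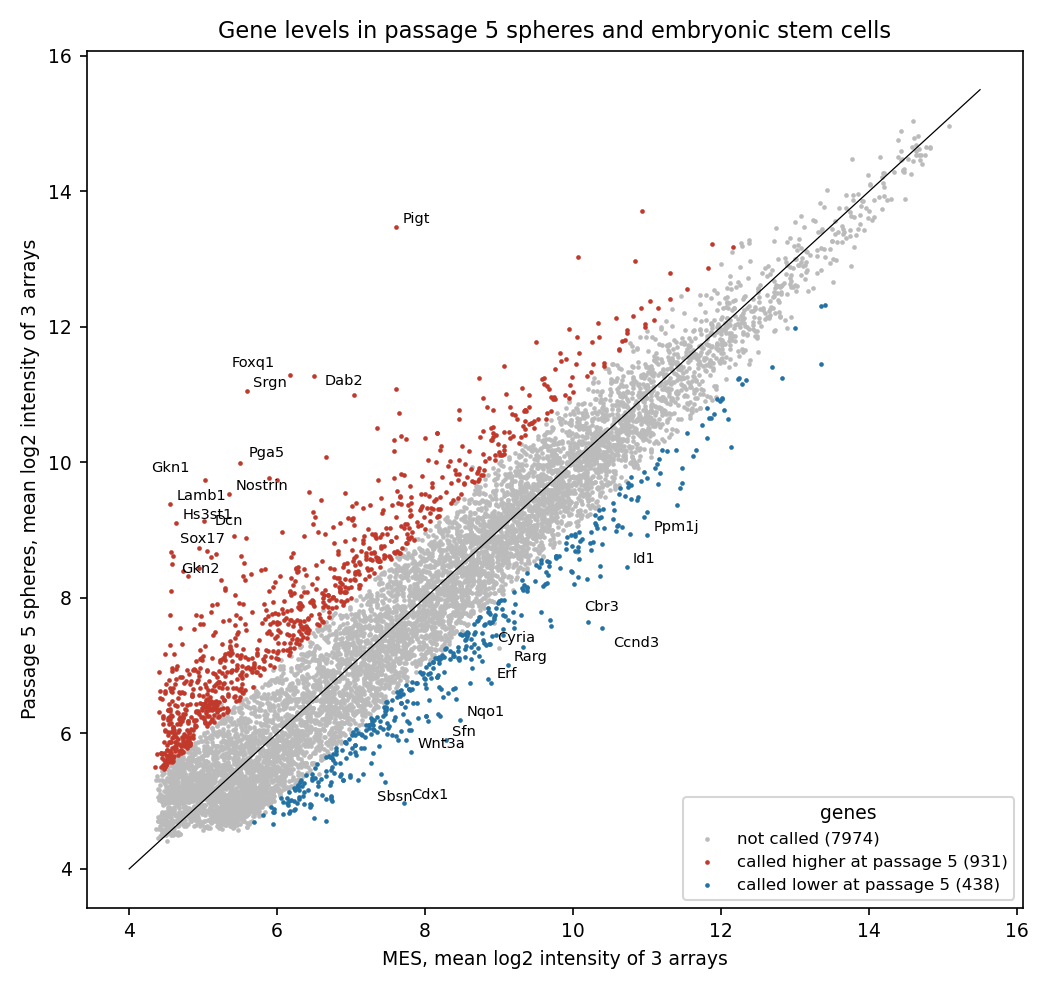
Mean log2 intensity of 3 passage 5 arrays against that of 3 MES arrays, 1 point per gene, with the 931 genes called higher at passage 5 in red, the 438 called lower in blue and the line of equal level in black. The 24 labelled genes are those with the largest differences, and the red points reach farther from the line, up to 5.87 for Pigt.

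Most measured members of a list of endoderm transcription factors, but not all, were called higher in the spheres. Of 9 measured members of this list, 6 were called higher and none lower, with a median difference of 1.66. Without a detection filter 6 of 11 were called higher and none lower, with a median of 1.33. Foxq1, a forkhead factor, stood at 10.98, 11.30 and 11.57 on the 3 passage 5 arrays and at 6.29, 6.20 and 6.01 on the MES arrays. The groups did not overlap, with a difference of 5.11 (SE 0.16, limma adjusted p = 3.48e-10). Sox17, a driver of endoderm identity, read 8.32, 8.79 and 8.93 at passage 5 and 4.42, 4.67 and 4.62 in MES, where it was below background on all arrays. It was at least 11.8-fold higher (limma adjusted p = 2.72e-09). Sox17 passed the detection filter only through passage 5, so its direction was set in advance.

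Gata4, the zinc finger factor of primitive endoderm and heart, read 8.67, 8.88 and 9.12 at passage 5 against 5.19, 5.79 and 5.74 in MES, a difference of 3.31 (SE 0.23, limma adjusted p = 5.32e-07). Both Gata4 probes were higher, the lower of them by 1.78. Sox7, a partner of Sox17 in parietal endoderm, stood at 8.01, 8.56 and 8.68 against 5.85, 5.90 and 5.59 (difference 2.64, SE 0.22). Gata6, the factor that acts first in primitive endoderm, was already well detected in MES at 9.56, 9.48 and 9.69 and reached 11.02, 11.33 and 11.35 at passage 5, a difference of 1.66 (SE 0.15). None of these 5 genes overlapped between groups, and passage 5 lay fully above MES in 30.2% of all genes. The sixth called member was Hnf4a (1.33), a factor of visceral endoderm and liver, and the members not called were Foxa2 (0.84), Foxa1 (0.36) and Hhex (−0.01). All 6 called members were higher on every passage 5 array than on each of the 9 other arrays of the study, which held for 8.76% of all genes and 38.7% of those called higher. For Sox17 this place was set by the detection filter.

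Basement membrane and surface genes of primitive endoderm followed the same direction, with 16 of 19 called higher, none lower and a median of 2.27. These counts and the median were the same without a detection filter. Lama1, among those called, passed that filter only through passage 5. Lamb1, a laminin chain, was at 9.22, 9.12 and 9.83 at passage 5 and below background in MES at 4.62, 4.56 and 4.47, so it was at least 19.3-fold higher (limma adjusted p = 4.7e-09). Dab2, an endocytic adaptor needed by visceral endoderm, was at 10.92, 11.39 and 11.50 against 6.35, 6.61 and 6.52, a difference of 4.77 (SE 0.22, limma adjusted p = 1.17e-08). Pdgfra, the growth factor receptor of primitive endoderm, was at 9.47, 9.70 and 10.03 against 6.08, 6.31 and 5.61 (3.73, SE 0.20). Both genes were higher on every passage 5 array than on any MES array, which held for 30.2% of all genes.

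Pth1r, the parathyroid hormone receptor of parietal endoderm, stood at 7.61, 8.02 and 8.66 against 4.57, 4.59 and 4.54, all below background in MES, and was at least 7.88-fold higher. Col4a1, a chain of type IV collagen, stood at 12.80, 12.90 and 13.38 against 10.30, 9.79 and 10.12 (2.96, SE 0.27, limma adjusted p = 4.02e-06). The 3 members not called were Fst (0.83), Nid1 (0.43) and Hspg2 (−0.0042). Of the 16 called genes, 12 were higher on all passage 5 arrays than on all 9 others, while 13 were also separated by chip, meaning that all 6 arrays of chips 2 and 3 lay above all 6 of chip 1.

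**Figure D2:**
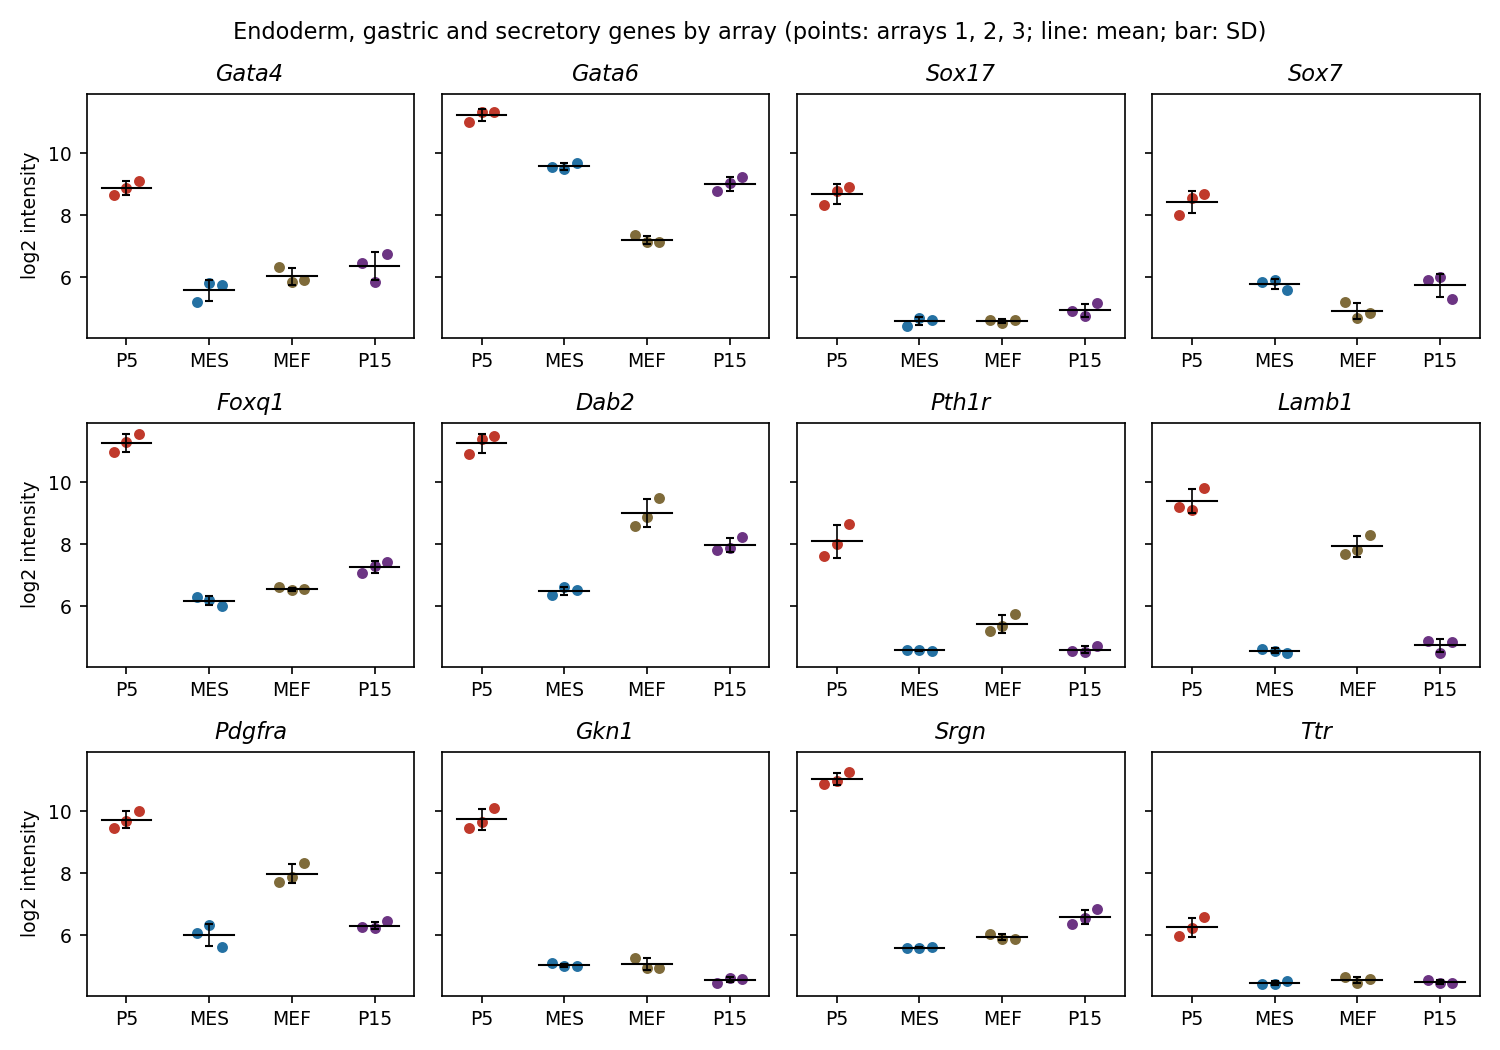
Log2 intensity of 12 endoderm, gastric and secretory genes on each array, with passage 5 (P5) and the arrays labelled MEF on chips 2 and 3, MES and passage 15 (P15) on chip 1, points for arrays 1 to 3, a line for the mean and a bar for the SD (n = 3). In every panel all 3 P5 points lie above all 3 MES points, from a gap in the means of 1.66 for Gata6 to 5.46 for Srgn. P5 lay fully above MES in 30.2% of all genes. Sox17 and Ttr passed the detection filter only through P5.

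Of 8 measured genes in a list of gastric and mucosal secretory genes, 6 were called higher and none lower (median 3.59). Without a detection filter 6 of 11 were called higher and none lower, and the median was 2.03. The list was chosen with earlier results of these data known, so its median is a description. The called members were the gastrokines Gkn1 and Gkn2 together with Srgn, Nostrin, Clu and Lcn2, which are not particular to the stomach lining. Gkn1, a gastrokine of the gastric surface, stood at 9.45, 9.66 and 10.11 at passage 5 and at 5.08, 4.99 and 5.01 in MES, below background on all MES arrays, and was at least 24.7-fold higher (limma adjusted p = 9.39e-10). Its neighbour Gkn2 was at 8.22, 8.73 and 8.90 against 4.59, 4.74 and 4.44 and at least 11.3-fold higher. Neither gene overlapped between groups, as in 30.2% of all genes with passage 5 above. Pga5, a pepsinogen named among the largest differences, was at 9.72, 9.92 and 10.34 against 5.09, 5.58 and 5.83, a difference of 4.49 (SE 0.22).

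Srgn, the core protein of a secretory granule proteoglycan, had the largest difference of this list at 5.46 (SE 0.14, limma adjusted p = 9.48e-11), at 10.89, 10.99 and 11.28 against 5.58, 5.59 and 5.60. Nostrin, an endothelial nitric oxide synthase trafficking protein, was at 9.25, 9.48 and 9.85 against 5.49, 5.36 and 5.20 (4.18). Clu, the secreted chaperone clusterin, was 3.16 higher (SE 0.31). Lcn2, the sixth called member, is an inflammation-linked lipocalin and rested on arrays 1 and 2, with 7.62, 7.23 and 5.00 at passage 5 against 4.54, 4.59 and 4.61. Agr2 (−0.18) and Muc1 (0.01) were not called. The trefoil peptides Tff1, Tff2 and Tff3 were not detected on all 3 arrays of any group.

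Visceral endoderm genes were mixed. Of 10 measured, 4 were called higher and 2 lower (median 0.75). The higher count was 7 with median scaling and 2 at an offset of 50. Without a detection filter 4 of 16 were called higher and 2 lower (median 0.44). Spink1, a trypsin inhibitor, was at 10.22, 10.22 and 10.55 against 7.72, 7.39 and 7.64, a difference of 2.75 (SE 0.21). Ttr, the transthyretin of visceral endoderm, was at 5.97, 6.22 and 6.58 against 4.42, 4.42 and 4.52 and at least 2.2-fold higher, but did not reach 2-fold with an offset of 50 (0.98). Ttr also passed the detection filter only through passage 5. Rhox5, a homeobox gene of the X chromosome active in endoderm, was 1.61 higher. Cryab, a small heat shock protein, was −1.78, and Trf, the iron carrier transferrin, was −1.76. Afp, Apoa2, Rbp4 and the 3 fibrinogen chains were not detected on all 3 arrays of any group.

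Promoters of 18 of the 32 genes called higher in the endoderm and gastric lists had an entry in RefSeq (GRCm38.p6), each window 300 bases, 250 before the start and 50 after it. They were searched on both strands for the GATA motifs AGATAA and TGATAA, known as motifs of GATA factors. A motif of each kind can share its first or last letter with another, and both cannot start at the same position. Of all 32851 windows, 6115 (18.6%) held either motif and 531 (1.62%) held both. Counted by gene, with a match in any window of the gene, 5664 of all 27025 genes (21.0%) held either and 515 (1.91%) held both in 1 window. Among the 18 genes, counted by gene in the same way, 4 (22.2%) held either and 3 (16.7%) held both. Those 3, Gkn1, Gkn2 and Dab2, are shown because they held both motifs. Srgn, Lamb1 and Nostrin, also among the largest differences, held neither motif. The 3 were picked after the motif search, so the share is a description and a match is not a binding site. Capitals mark the motif, written as it lies on the strand shown.

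Gkn1 chr6:87350866-87351165 (minus strand): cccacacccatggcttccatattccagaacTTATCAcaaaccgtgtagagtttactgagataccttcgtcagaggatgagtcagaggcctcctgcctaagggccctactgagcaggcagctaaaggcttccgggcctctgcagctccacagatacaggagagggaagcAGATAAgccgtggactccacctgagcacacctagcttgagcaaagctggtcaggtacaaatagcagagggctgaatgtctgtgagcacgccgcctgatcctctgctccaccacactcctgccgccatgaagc

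Gkn2 chr6:87373115-87373414 (plus strand): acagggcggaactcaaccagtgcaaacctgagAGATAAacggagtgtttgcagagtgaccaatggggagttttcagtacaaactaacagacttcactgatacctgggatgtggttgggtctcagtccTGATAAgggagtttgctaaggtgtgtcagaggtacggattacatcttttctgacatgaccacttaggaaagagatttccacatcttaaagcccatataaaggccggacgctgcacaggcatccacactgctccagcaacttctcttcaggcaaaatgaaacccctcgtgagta

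Dab2 chr15:6299539-6299838 (plus strand): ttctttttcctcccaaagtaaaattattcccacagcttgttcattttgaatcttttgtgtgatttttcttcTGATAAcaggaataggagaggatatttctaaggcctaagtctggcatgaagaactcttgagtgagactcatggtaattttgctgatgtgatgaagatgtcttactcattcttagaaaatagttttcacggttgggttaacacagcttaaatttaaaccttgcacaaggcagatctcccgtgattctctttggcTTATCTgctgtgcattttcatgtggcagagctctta

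Of 15 naive pluripotency factors measured, 3 were called higher, 1 lower and 11 were not called (median 0.49), while with median scaling 9 were called higher and none lower (median 1.06). Pou5f1, the factor Oct4, was the 1 called lower. It stood at 11.50, 11.67 and 11.05 on the passage 5 arrays and at 12.63, 12.67 and 12.78 on the MES arrays. The groups did not overlap, with passage 5 below, as in 34% of all genes. Pou5f1 had a difference of −1.29 (SE 0.21, limma adjusted p = 0.000335). Its other probe was 0.07, and the mean over both probes (−0.61) and median scaling (−0.69) fell short of 2-fold. Sox2 was 0.64 (SE 0.20, limma adjusted p = 0.0164), past the p threshold but not called, with 9.02, 9.03 and 9.18 at passage 5 and 8.13, 8.78 and 8.41 in MES. Its other probe was 2.19, and Sox2 was called in 8 of the alternatives, at 1.41 with the mean over its probes and up to 2.30 without MES array 3. The brightest probe was picked anew in every setting but that mean, so values near 2.19 may come from the other probe. These calls are therefore not separate checks of 1 probe.

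Klf4, a factor of the naive state, was called higher (1.59, SE 0.19), at 10.98, 11.06 and 10.96 against 9.24, 9.55 and 9.44. Stat3, the effector of LIF signalling, was at 1.55 and Sall4 at 1.62, although Sall4 was at 0.48 with the mean over its probes. Zfp42, a marker of the naive state, was 0.74 (limma adjusted p = 0.00946), above 2-fold only with median scaling (1.42), and Esrrb was −0.18 (limma adjusted p = 0.359). No probe used here was annotated to Nanog. Myc, which is also part of reprogramming recipes, was called lower at −1.48 (SE 0.20) and detected on 2 of 3 passage 5 arrays. Myc fell short of 2-fold with median scaling (−0.84), an offset of 50 (−0.96) and the authors' table (−0.92).

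Primitive streak and formative genes gave 3 of 10 called lower and 1 higher (median −0.48 with quantile normalization, 0.17 with median scaling). Cdx1, a caudal homeobox gene of posterior identity, was at 5.07, 5.01 and 4.85 against 7.87, 7.42 and 7.87 (−2.74, SE 0.15, limma adjusted p = 4.65e-08), and was detected on 2 of 3 passage 5 arrays. Tlx2 was at −1.89 and Evx1 at −1.63, both homeobox genes of the posterior embryo, and Evx1 too was detected on only 2 passage 5 arrays. Otx2, an anterior homeobox gene, was called higher at 1.56 (SE 0.20). Wnt3a, a ligand of the primitive streak, was at 5.89, 5.73 and 5.56 against 7.92, 7.56 and 7.95 (−2.08, SE 0.15). Its groups did not overlap, with passage 5 below, as in 34% of all genes.

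**Figure D3:**
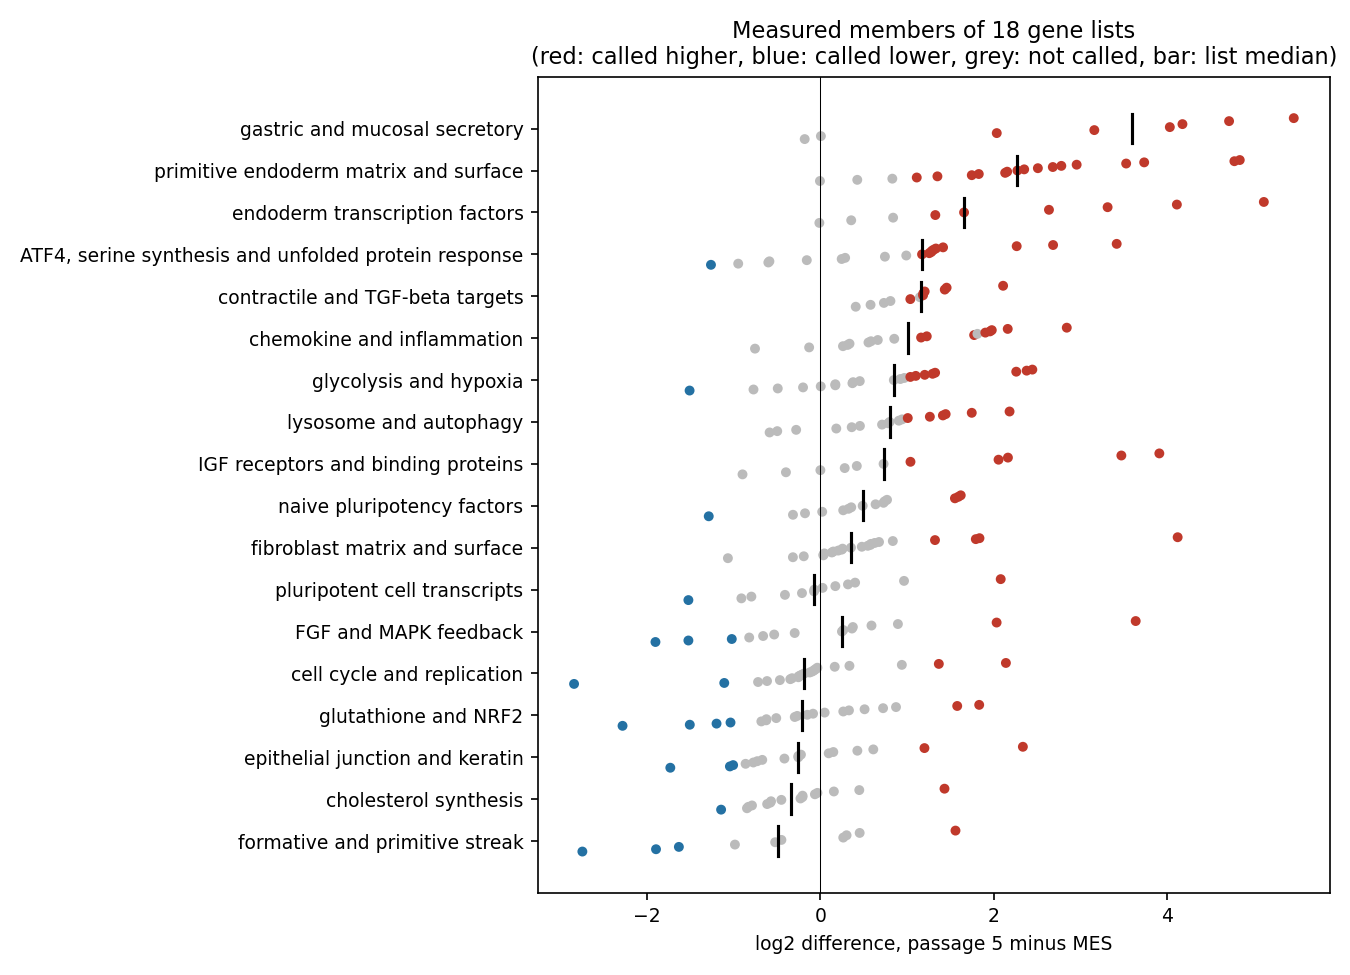
Log2 difference between passage 5 and MES for every measured member of 18 gene lists, 1 point per gene, with called genes in red or blue and a bar at the list median. Of the lists drawn, the endoderm factor, endoderm matrix and gastric lists lie farthest right, with medians of 1.66, 2.27 and 3.59. Streak genes lie lowest at −0.48. The visceral endoderm list, with a median of 0.75, is not drawn. The lists were chosen with earlier results of these data known, so this order is a description.

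Signalling genes were called in both directions, beside 9.96% of all genes called higher and 4.69% called lower. In the Nodal list 3 of 11 were called higher and none lower: Lefty1, an inhibitor of Nodal, by 2.59 (SE 0.21), the coreceptor Tdgf1 by 2.08, and Lefty2 by 1.15. Lefty2 was not called without MES array 1 (0.87) or with the chip 3 array alone (0.92). With median scaling 6 of the 11 were called higher. Levels of Lefty1 were 10.16, 10.31 and 10.03 against 7.51, 7.63 and 7.59. In the BMP list, 4 of 12 were higher and 1 lower. Id1, a target of BMP signalling, was lower at 8.80, 8.52 and 8.05 against 10.73, 10.68 and 10.76 (−2.27, SE 0.23), while Id2 was at least 2.69-fold and Id4 at least 2.37-fold higher. Grem1, a BMP antagonist, rested on arrays 1 and 2, with 9.16, 8.39 and 5.69 at passage 5 against 4.91, 4.95 and 4.83 in MES, and was not called with the chip 3 array alone (0.71).

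In the FGF list, 2 of 15 were higher and 3 lower, against 5 and 2 with median scaling and 2 and 1 in the authors' table. The ERK-responsive factors Etv4 (−1.90) and Etv5 (−1.02) and the ligand Fgf4 (−1.52) were lower, while the receptor Fgfr2 was higher at 8.43, 8.54 and 9.09 against 5.24, 4.99 and 4.92 (3.64, SE 0.31). The other Fgfr2 probe gave 0.36. Etv5 was under 2-fold with median scaling (−0.27), the authors' table (−0.96), an offset of 50 (−0.97) and without passage 5 array 3 (−0.83), MES array 2 (−0.95) or MES array 3 (−0.96). Fgf4 was detected on 2 of 3 passage 5 arrays and was −0.97 in the authors' table. The Wnt list had 1 gene higher, Dkk1, a Wnt inhibitor at least 1.54-fold higher, and 1 lower, Wnt6 (−1.87), of 15. Dkk1 was not called in the authors' table (0.64), at an offset of 50 (0.55) or without passage 5 array 3 (0.93).

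In the list of IGF receptors and binding proteins 5 of 11 were called higher and none lower (median 0.73), namely Igf2, 3 binding proteins and Irs1, the adaptor inside the cell. Igf2, the fetal growth factor, was at 10.83, 10.90 and 11.51 against 7.74, 7.46 and 7.64 (3.47, SE 0.24), against 14.17 in the arrays labelled MEF. The binding proteins Igfbp5 (at least 10.4-fold), Igfbp4 (2.16) and Igfbp3 (at least 2.84-fold) were higher as well. The other Igfbp3 probe gave 0.37. Hoxa5 and Hoxa7, which pattern the body axis, were 2.59 and 2.67, and 3 of 15 Hox genes were called in all, against 6 with median scaling and 5 of 16 without passage 5 array 3.

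Glycolysis and hypoxia genes were called higher in 8 of 21 and lower in 1 (median difference 0.85). The median level of the list ran the other way, at 10.68, 10.64 and 10.72 on the passage 5 arrays against 11.22, 11.01 and 11.37 in MES, since a median of levels and a median of differences fall on different genes. The leading members were P4ha1, a collagen hydroxylase, at 2.44, Pgam1, a glycolytic mutase, at 2.38 and Ndrg1, a hypoxia response gene, at 2.26. Pgam1 stood at 9.79, 9.64 and 9.79 against 7.28, 7.30 and 7.50. Pfkp, the platelet phosphofructokinase, was lower at −1.51, and another of its 3 probes gave 0.42. Pfkp was not called with median scaling (−0.76). Of the 8 called higher, 6 were above all 9 other arrays, and with median scaling 12 were called higher and none lower.

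ATF4 and unfolded protein response genes were called higher in 10 of 19 and lower in 1 (median 1.17), but in 5 of 19 in the authors' table (median 0.86) and 5 of 19 at an offset of 50 (median 0.76). Chac1, which degrades glutathione and is induced by ATF4, was at 10.63, 10.37 and 9.22 against 6.66, 6.69 and 6.62 (3.42, SE 0.27, limma adjusted p = 1.44e-06). The stress gene Ddit4 was 2.68, the chaperone cofactor Dnajb9 2.26 and the chaperone Hspa5 1.42. Of the 10 called, 8 were also separated by chip, and in the chip 3 array alone 8 were called higher and 2 lower (median 0.64). Lysosome genes were higher in 6 of 17 and lower in none (median 0.80), led by Ctsz, a cathepsin (2.18), and Hexa, a hexosaminidase (1.75), and all 6 were separated by chip. With median scaling 14 of the 17 were called higher. The part of chip in these lists was not tested.

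Fibroblast matrix and surface genes gave 4 of 23 called higher and none lower (median 0.35), with passage 5 arrays 1 and 2 above array 3. Dcn, a small proteoglycan, was at 10.18, 9.50 and 7.74 against 5.30, 4.73 and 5.02 (4.12, SE 0.45), with 0.04 by another of its 4 probes. Col1a1 was not called (0.58, limma adjusted p = 0.258), at 7.92, 7.24 and 5.78 against 6.66, 6.37 and 6.15. Vim was 0.05 and Thy1, a surface antigen of fibroblasts and of mouse embryonic stem cells, −1.07 (limma adjusted p = 0.158), at 9.51, 8.79 and 6.06 in the spheres and 9.38, 8.95 and 9.23 in MES. Without passage 5 array 1 Thy1 was called lower (−1.75), and without array 3 it was −0.04, while Col1a1 was called higher without array 3 (1.18) and was 0.12 without array 1. With the chip 3 array alone Thy1 was −3.09 and Col1a1 −0.58, where its sign turned. Cd44, the hyaluronan receptor, was called at least 1.49-fold higher, with 6.68, 5.71 and 4.69 at passage 5, and the other probe gave 0.09. Cd44 was not called without passage 5 array 1 (0.80) or at an offset of 50 (0.70). With the chip 3 array alone Cd44 was 0.31, not called, and Dcn 2.58.

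The third passage 5 array was the low one in these genes. The median level of the fibroblast list was 7.52, 7.15 and 5.78 on the passage 5 arrays and 5.28 to 5.76 on the MES arrays. Contractile genes (7 of 12 called higher) stood at 7.47, 6.89 and 5.81, and chemokine genes (8 of 18 called higher) at 7.56, 7.45 and 5.62. The fibroblast list gave 2 higher without passage 5 array 1, 9 without array 3 and 9 with median scaling. Calls among contractile genes were 4 without passage 5 array 1, 11 without array 3, and 3 in the authors' table and at an offset of 50. Calls among chemokine genes were 4 without array 1 and 4 without array 2. Some members passed the detection filter only through another group. With the filter on passage 5 and MES only, 14 fibroblast, 8 contractile and 12 chemokine genes were measured. Of these, 2, 5 and 4 were called higher. Cd44, Acta1, Ccl2, Isg15 and S100a4 did not pass that filter. With the chip 3 array alone against MES, fibroblast genes gave 2 higher and 4 lower (median −0.11), contractile genes 2 higher and 1 lower (0.13), and chemokine genes 3 higher and 1 lower (0.03). In that setting Acta1, a muscle actin, was −0.16, Ccl2, a monocyte chemokine, −0.072, Isg15, an interferon-induced modifier, −0.12 and S100a4, a fibroblast calcium-binding protein, −0.54, against 1.19, 2.16, 1.03 and 1.79 with all 3 arrays. Without passage 5 array 1 these 4 genes were 0.62, 1.33, 0.55 and 0.98, none called, and without array 3 they were 1.86, 3.27, 1.59 and 2.98. The summed fibroblast markers ran from 361.3 to 2199 at passage 5, against 625.6 to 840.7 in MES and 12370 to 23750 in the arrays labelled MEF. Endoderm factors had their lowest level on array 1, at 8.02, 8.56 and 8.68 on the same 3 arrays, and matrix genes at 9.47, 9.70 and 9.98. The part of remaining fibroblasts in these values was not tested, and in bulk RNA fewer cells of a type and less RNA per cell cannot be told apart. Of 8 macrophage and blood markers 4 were on the array, and none of the 4 was detected on a passage 5 or MES array. In the longer list of 13 such genes on the array, 2 were measured and neither was called, Laptm5 (−0.53) and Spi1 (0.60), and Laptm5 turned to 0.056 with median scaling.

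**Figure D4:**
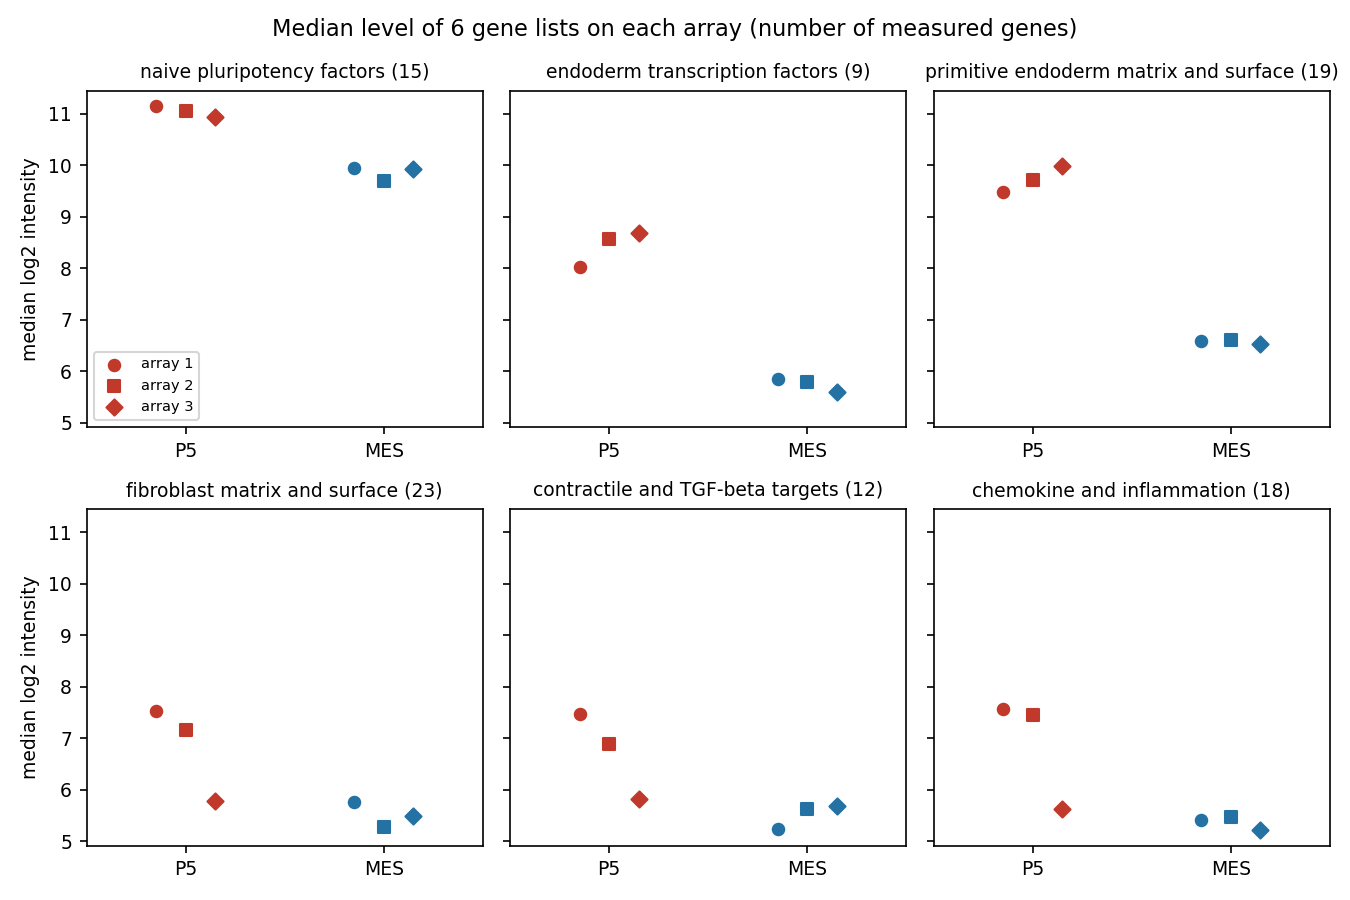
Median log2 intensity of the measured members of 6 gene lists on each passage 5 (P5) and MES array, marked by array number. Fibroblast, contractile and chemokine lists are lower on P5 array 3 than on arrays 1 and 2, while endoderm factors and matrix genes are not.

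Genes lower in the spheres outside those lists included regulators and detoxifying enzymes. Ccnd3, a cyclin of G1, was at 7.64, 7.89 and 7.14 against 9.78, 10.89 and 10.52 (−2.84, SE 0.28), but its other probe gave 0.24 and the mean over both was −1.30. In the cell cycle list 2 of 23 were higher and 2 lower, beside 9.96% and 4.69% of all genes. Nqo1, a quinone reductase and classical NRF2 target, was at 6.77, 6.23 and 5.58 against 8.03, 8.83 and 8.55 (−2.28, SE 0.30), and Cbr3, a carbonyl reductase, at −2.56. In the glutathione and NRF2 list 4 of 20 were lower and 2 higher (median −0.21, or 0.47 with median scaling, where the sign turned). The count lower was 1 without passage 5 array 3, 1 with median scaling and 2 without MES array 2 or 3. Sfn, the epithelial protein 14-3-3 sigma, was −2.38, Rarg, a retinoic acid receptor, −2.10 and Sbsn, suprabasin, −2.19. By size the lower genes reached −2.84 and the higher ones 5.87, with 8 of the 438 below background at passage 5 and 210 of the 931 below background in MES.

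Pigt, an enzyme of GPI anchor assembly, had the largest difference of all genes at 13.73, 13.32 and 13.38 against 7.86, 7.61 and 7.35 (5.87). Its other probe gave 0.58, so its 2 probes disagreed in size, and the arrays labelled MEF read 13.66 as well. Hs3st1, a heparan sulfate sulfotransferase, was at least 15.9-fold higher. Fabp3, a fatty acid carrier, was at 13.58, 13.58 and 13.97 against 11.08, 10.70 and 11.03 (2.78, SE 0.16), and at 13.17 in passage 15.

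Many of these differences also separated the arrays by chip. A level that passage 5 and the arrays labelled MEF share through their cells separates them the same way. The part of chip was not tested. All 6 arrays of chips 2 and 3 lay above all 6 of chip 1 in 1201 genes (12.9% of all), and below in 1767 (18.9%). Among called genes the same held for 563 of 931 higher (60.5%) and 284 of 438 lower (64.8%). Across the 9343 genes, which are not independent replicates, the difference between passage 5 and MES had a Pearson r of 0.45 with the difference between the arrays labelled MEF and passage 15, which lie on the same chips and share no array with it. Endoderm factors gave 0 of 6 genes separated by chip and gastric genes 2 of 6, while matrix genes gave 13 of 16.

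**Figure D5:**
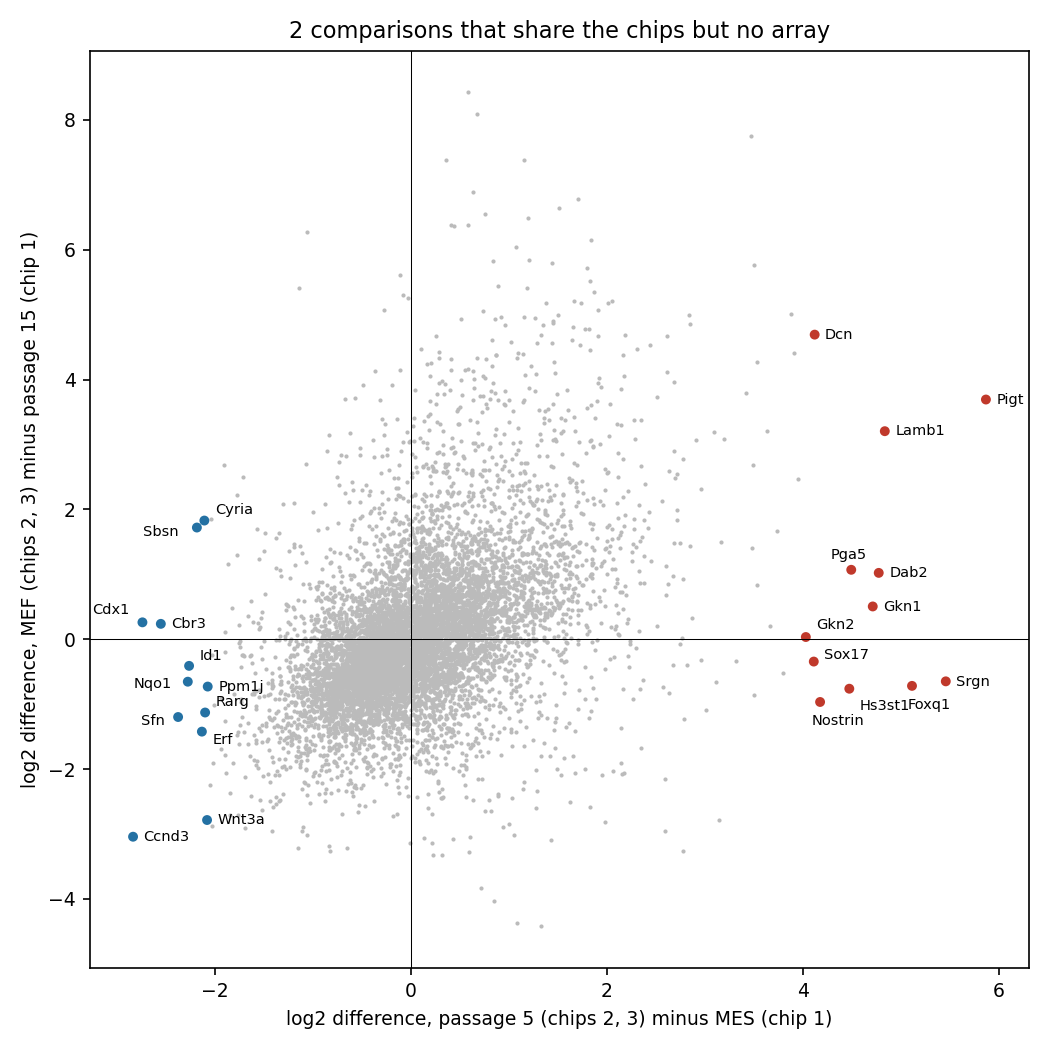
Log2 difference between passage 5 and MES against that between the arrays labelled MEF and passage 15, 1 point per gene, both differences crossing from chips 2 and 3 to chip 1. Foxq1, Srgn, Sox17 and Nostrin lie far right and below 0 on the vertical axis, while Pigt, Dcn and Lamb1 lie high on both axes.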

How the data were processed

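Total RNA was labelled as biotinylated cRNA and hybridised, per the labels' protocols. The deposited raw table holds bead intensities on a linear scale with a detection p-value per probe, per the file headers, and some values are below 0, so background had been subtracted. The deposited log2 table is normalized by the authors and was used as an alternative. The scanner software is not given in the sources used here.

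Of 46657 probes, 20 whose value cells held dates in place of numbers were not analysed. The rest were background corrected and quantile normalized over 12 arrays with limma 3.58.1 in R 4.3.3 (neqc, offset 16, negative controls inferred from detection p-values). A probe was kept if some group had a detection p under 0.05 in each of its 3 arrays, which left 19444, of which 7288 had no gene and were set aside. The brightest kept probe stood for a gene, giving 9343. A model with 1 mean per group was fitted over 12 arrays (8 residual degrees of freedom), and the contrast passage 5 minus MES tested with eBayes and Benjamini-Hochberg adjustment. A minimum fold set the mean of the brighter group against the dim group's mean of, per array, the probe's own level or the lowest level among detected probes, whichever was higher. The number of arrays limits the precision. The fit was checked on simulated data with independent values and no chip or strain effects. That check therefore does not bear on those effects.

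Named genes are a panel of 13, the 12 largest differences per direction among calls with groups that were fully apart (clone and predicted symbols left out), and up to 5 called members per list. Members of a list named beyond this, to account for the list, were chosen after their values were seen. Members and the 45 lists were chosen with earlier results of these data known. Promoter sequences are from RefSeq.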

Additional observations from a re-analysis of the deposited data

How the results depend on the processing

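The count of called genes (1369, with 931 higher and 438 lower) was 2798 with 2753 and 45 under median scaling, 788 with 556 and 232 in the authors' table, 812 with 570 and 242 at an offset of 50, and 4991 with 2353 and 2638 without a fold threshold. Called genes not separated by chip, a count chosen after seeing the data, were 522, with 368 and 154. Leaving out each array in turn gave 1281 to 1510 genes called, 895 to 1003 higher and 376 to 507 lower. The replicate numbers do not pair the samples (correlations of same-numbered deviations −0.06, 0.20 and −0.06), and with the replicate block the counts were 1371, 932 and 439. The chip 3 array alone, also chosen after seeing the data, gave 1562 calls, a random chip block 1380 and the other alternatives 1270 to 1404. Of 2955 values of 165 named genes, 2763 kept direction and side, 168 lost the call, 14 gained it and 10 changed sign. Of these, 6 had no call on either side (4 of Vim, 1 of Col1a1 and 1 of Laptm5), and the 4 with a call came with the chip 3 array alone: Acta1 (−0.16), Ccl2 (−0.072), Isg15 (−0.12) and S100a4 (−0.54). Under median scaling 11 list medians below 0 turned above it. The cause of these changes was not tested. Genes near background on the arrays have bounds only.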

Other observations

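The set of 7288 kept probes without a gene gave 720 probes called higher and 273 called lower at passage 5, which cannot be named here. Interferon and antigen presentation genes were mixed, with 4 of 20 higher and 2 lower, or 9 and 0 with median scaling. B2m, the light chain of class I molecules, was 1.69 (SE 0.20) and H2-K1, a class I heavy chain, at least 2.48-fold higher, just under 2-fold at an offset of 50. Among cholesterol synthesis genes 1 of 16 was higher, Idi1 (1.43, or 0.97 in the authors' table), and 1 lower, Mvk (−1.14, or −0.36 with median scaling), with a list median of −0.34 that turned to 0.38 with median scaling. Matrix proteases gave 6 of 17 higher and 1 lower, or 11 and 1 with median scaling and 3 and 1 with the chip 3 array alone, with Ctsh, a cathepsin, at least 5.39-fold higher and Plaur, the urokinase receptor, at −2.04. Mmp3, a stromelysin, read 10.09, 9.41 and 5.49 at passage 5, so its difference of 3.53 came from arrays 1 and 2 and was 0.62 with array 3 alone. Of the tight junction and keratin genes 2 of 17 were higher, with Tjp1 at 2.34, and 3 lower, with the protease St14 at −1.73, or −0.91 with median scaling.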
